A study of Mus musculus with 2 samples.

Results

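The immunoglobulin constant region genes *Ighm*, *Ighd*, *Igkc*, *Iglc1*, *Iglc2* and *Iglc3* were followed through the B cell lineage of mouse bone marrow and into the other marrow cells. The 6 genes were chosen by name. *Ighm*, *Igkc* and *Iglc2* were listed in both libraries, among 7181 genes in the WT table and 6735 in the Cko table. *Ighd*, *Iglc1* and *Iglc3* were listed in neither table. Each listed gene reached at least 4 UMIs (unique molecular identifiers, counted RNA molecules) in some cell, so an unlisted gene was not taken as 0, and these 3 genes have no values here.

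Sc-RNA-Seq was done on red blood cell-depleted bone marrow cells (BMCs) from the limbs of 1 WT and 1 Cko mouse, both on the C57BL6/J background and both at postnatal day 21. The Cko mouse carried S1P f/f with Osx-Cre, in which an *Osx1-GFP::Cre* transgene removes exon 2 of *Mbtps1*, the gene of site-1 protease, from cells that have used the osterix promoter. The study gives its WT mice as S1P f/f without the transgene, so the floxed allele was shared and the transgene was not. Osterix is a factor of bone-forming cells. Reads at the 3′ end of *Mbtps1* lie outside the deleted exon, so they do not show in which cells of the marrow the exon was removed, and its state in the B cells is not known from these data. With 1 library per genotype no difference between WT and Cko has a replicate check, and every interval below covers counting error only. Library, mouse and genotype cannot be told apart.

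A B cell first joins gene segments of the heavy chain and makes the µ chain, whose constant part is *Ighm*. At that time the µ chain pairs with the surrogate light chain, made of *Igll1* (λ5) and *Vpreb1*, and this pre-B cell receptor drives a burst of division. The cells then become small, lose the surrogate light chain and join a light chain gene, usually at the kappa locus first and at a lambda locus when kappa fails. A mature cell usually shows either kappa or lambda on its surface, and mouse B cells use kappa far more than lambda. *Igkc* is the only kappa constant gene, *Iglc1*, *Iglc2* and *Iglc3* are the lambda constant genes, and *Ighd* is spliced to the same heavy chain in mature cells. Plasma cells secrete antibody and hold very large amounts of these messenger RNAs. Transcripts of an unrearranged constant region, called germline or sterile transcripts, also exist, and a 3′ count does not separate them from messages for a complete chain.

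In the GENCODE vM21 annotation of GRCm38, the build named in the submitters' processing notes, *Ighm* (ENSMUSG00000076617) lies on chr12:113418558-113422730 on the minus strand. *Ighd* (ENSMUSG00000104213) lies beside it on chr12:113406604-113416324, on the same strand. *Igkc* (ENSMUSG00000076609) is 1 exon on the plus strand at chr6:70726435-70726966. The lambda genes lie on the minus strand of chromosome 16, with *Iglc2* (ENSMUSG00000076937) at chr16:19198396-19200351, *Iglc3* (ENSMUSG00000105547) at chr16:19065230-19065681 and *Iglc1* (ENSMUSG00000105906) at chr16:19061618-19062071. The last 90 coding bases, stop codon included, are shown because a 3′ library reads near this end of the message and because they show how alike the lambda genes are there. They are chr16:19198536-19198625 for *Iglc2*, chr16:19065365-19065454 for *Iglc3*, chr16:19061752-19061841 for *Iglc1* and chr6:70726668-70726757 for *Igkc*, each written 5′ to 3′ on the strand of the gene. Capitals mark the letters of *Iglc3* and *Iglc1* that differ from *Iglc2*.
Iglc2: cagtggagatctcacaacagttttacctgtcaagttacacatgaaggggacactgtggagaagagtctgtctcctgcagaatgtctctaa
Iglc3: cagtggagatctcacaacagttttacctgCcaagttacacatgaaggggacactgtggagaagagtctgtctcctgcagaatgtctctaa
Iglc1: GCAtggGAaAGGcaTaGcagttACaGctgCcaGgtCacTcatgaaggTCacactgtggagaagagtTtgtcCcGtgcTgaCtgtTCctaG
Igkc: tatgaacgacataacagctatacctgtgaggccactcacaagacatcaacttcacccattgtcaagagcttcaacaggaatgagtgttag

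*Iglc3* differed from *Iglc2* at 1 of these 90 bases and *Iglc1* at 27. Over the coding part *Iglc2* and *Iglc3* were 96.2% identical, and *Iglc2* and *Iglc1* 73.7%. Of the 361 windows of 98 bases in the *Iglc2* transcript, the length of the study's cDNA reads, 0 were found unchanged in *Iglc3* and 68 were found with at most 2 differences. None of the 361 came within 2 differences of *Iglc1* or of *Igll1*. The *Iglc2* values below are therefore uncertain as to the share that belongs to *Iglc3*, and stand here for lambda of the *Iglc2* and *Iglc3* kind. *Igkc* was 56.0% identical to *Iglc2* over the coding part and had no such window, so kappa and lambda reads are told apart.

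The WT library held 6271 kept cells with a median of 6977 UMIs and the Cko library 3662 cells with a median of 7440 UMIs. The libraries shared 28 cell barcodes of the 3670 in the smaller one. Cells of both libraries were clustered together with the immunoglobulin genes left out. The B cell-like class was named from its markers, joined from a cluster led by *Igll1* and *Vpreb1* (776 WT and 544 Cko cells) and one led by *Ms4a1* and *Cd74* (64 and 72 cells, 1 of the WT cells being set apart below), and was divided again into stages, which are named by the genes that mark them. Surrogate light chain-high (SLC-high) cells, the pro-B and large pre-B markers, numbered 358 in WT and 225 in Cko. Surrogate light chain-low (SLC-low) cells, with small pre-B markers, numbered 405 and 313. Sub-clustering into at least 4 groups gave no group of its own for cells of *Ms4a1* (CD20), so the Ms4a1-expressing stage, with markers of immature and mature B cells, was taken from the finer division into at least 6. It held 17 WT and 35 Cko cells, so most cells of the cluster led by *Ms4a1* and *Cd74* lay in other groups. The other B cell-like cells, 59 in WT and 43 in Cko, were grouped by neutrophil or erythroid markers and were given no stage.

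The marker genes followed these names in both libraries. *Igll1* was at 1779 CPM (UMIs of a gene per 1000000 UMIs, summed over the cells of a group) in SLC-high, 589 in SLC-low and 55.7 in Ms4a1-expressing WT cells, and at 1930.5, 752 and 135 CPM in Cko cells. *Dntt*, the enzyme that adds bases at joined heavy chain ends, was at 260 and 328 CPM in SLC-high cells of WT and Cko and at 17.7 and 12.7 CPM in SLC-low cells. *Ms4a1* was at 1490 CPM in the WT and 1568 CPM in the Cko Ms4a1-expressing cells, and at 10.3 to 19.2 CPM in the other stages. These genes were among those clustered, so their pattern is no test of the stages.

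Before any level is compared, 4 WT cells have to be set apart. They held at least 1827 UMIs of the 3 genes each, which was 33.1% to 50.6% of all UMIs in the cell, while the next highest WT cell held 70 and the highest Cko cell 132. Their *Ighm* UMIs were 668, 1006, 1106 and 1432. Their *Igkc* UMIs, in the same order of cells, were 1102, 1144, 2356 and 2403. Their *Iglc2* UMIs were 57, 58, 23 and 32, so that kappa made 95.1% to 99.0% of the light chain UMIs in each.

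**Figure D1:**
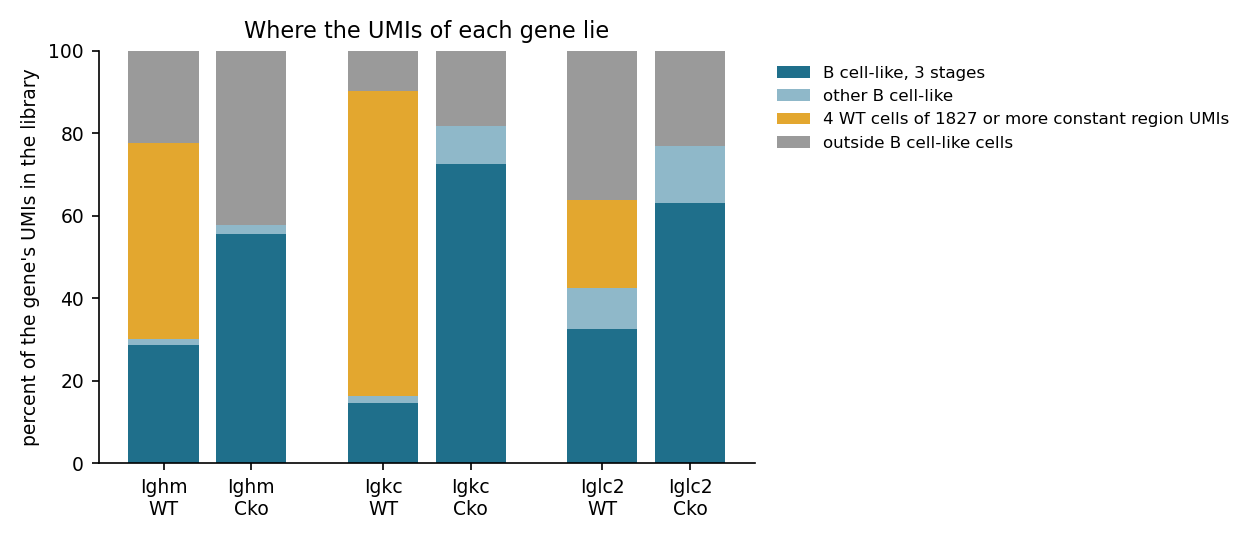
Percent of the UMIs of *Ighm*, *Igkc* and *Iglc2* in each library (stacked bars, from 0 to 100%) that lay in the B cell-like cells of the 3 stages, in other B cell-like cells, in the 4 WT cells of 1827 or more constant region UMIs, and outside B cell-like cells. The 4 cells take 47.5% of WT *Ighm* and 73.8% of WT *Igkc*, and no Cko cell is of that kind.

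All 4 cells carried *Igj* (the J chain that joins IgM into polymers) at 381, 582, 470 and 1091 UMIs, *Xbp1* (a factor of secretory cells) at 6 to 17 UMIs and *Tnfrsf17* (the plasma cell receptor BCMA) at 2 to 8 UMIs. With 3 or 4 of the 5 listed plasma cell markers detected they are plasma cell-like. *H2-Aa*, an MHC class II gene of mature B cells, was at 0 in all 4, but *Cd74*, the chaperone of MHC class II, was at 19 to 36 UMIs in each, *Cd79a* at 3 to 9 and *Ms4a1* at 3 UMIs in 1 of them. None was called a doublet. The clustering placed 3 of them in an unnamed cluster led by *Sepp1* and *Lgmn* and 1 among SLC-low cells. These 4 of 6271 cells, a share of 0.0638% (95% exact binomial interval 0.0174 to 0.163%), held 4212 of 8859 WT *Ighm* UMIs, 7005 of 9488 *Igkc* UMIs and 170 of 792 *Iglc2* UMIs. In Cko 0 of 3662 cells were of this kind, which allows a share of up to 0.101% (95% exact binomial interval), so that the libraries are not distinguished by this count. *Igj* was not listed in Cko. The limit of 500 UMIs that sets these cells apart was chosen after their values were seen, and they are left out of all values that follow unless named.

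*Ighm*, the µ heavy chain, was found in most B cell-like cells of every stage, and from SLC-high to Ms4a1-expressing cells its level differed 2.16-fold in WT (interval 1.65 to 2.80) and 2.77-fold in Cko (2.31 to 3.30). In WT it was at 393 CPM (95% exact Poisson interval 371 to 415) in SLC-high cells, 613 CPM (579 to 649) in SLC-low cells and 849 CPM (649.6 to 1091) in Ms4a1-expressing cells. In Cko the values in the same order were 319 CPM (298 to 340.1), 529 CPM (498 to 562) and 882 CPM (744 to 1038). The order of the stages was the same in both libraries, and the step from SLC-low to Ms4a1-expressing was 1.39-fold in WT (interval 1.05 to 1.79) and 1.67-fold in Cko (1.39 to 1.98).

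Per cell, the median *Ighm* count was 3 UMIs in SLC-high and in SLC-low cells of both libraries, with highest cells of 14 and 20 UMIs in SLC-high and of 15 and 14 in SLC-low. A *Ighm* UMI was present in 90.2% of SLC-high cells of WT and of Cko and in 89.9% and 88.5% of SLC-low cells. After each cell was thinned to 3000 UMIs the shares were 64.5% and 64.9% in SLC-high and 81.5% and 76.4% in SLC-low cells. The unthinned equality of the stages thus went with unequal depth, since SLC-high cells had medians of 8750 UMIs in WT and 12175 in Cko against 4182 and 5349 in SLC-low cells.

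*Igkc*, the kappa constant region, was higher at each next stage. It was at 87.1 CPM (77.3 to 97.8) in WT SLC-high, 432 CPM (403 to 462) in SLC-low and 3828 CPM (3389 to 4309) in Ms4a1-expressing cells. In Cko it was at 59.3 CPM (50.7 to 69.0), 557 CPM (525 to 589.8) and 3706 CPM (3416 to 4013). SLC-low cells thus held 4.96-fold more *Igkc* in CPM than SLC-high cells in WT (interval 4.33 to 5.69) and 9.38-fold more in Cko (7.98 to 11.1), and Ms4a1-expressing cells 8.86-fold (7.71 to 10.2) and 6.66-fold (6.02 to 7.35) more than SLC-low cells. The intervals of the first step did not overlap between the libraries. That step depends on which cells are taken as SLC-high: with at least 6 sub-clusters, which leaves the cells led by *Dntt* alone in it, SLC-high *Igkc* was at 24.6 CPM in WT and 0.972 CPM in Cko, and with each library clustered on its own at 67.1 and 1.70 CPM.

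The share of cells with an *Igkc* UMI moved from 27.1% (interval 22.6 to 32.0%) in WT SLC-high cells to 75.1% (70.6 to 79.2%) in SLC-low and 94.1% (71.3 to 99.9%) in Ms4a1-expressing cells. In Cko it was 20.9% (15.8 to 26.8%), 88.8% (84.8 to 92.1%) and 91.4% (76.9 to 98.2%). Thinned to 3000 UMIs, the shares in SLC-high and SLC-low cells were 12.0% and 64.0% in WT and 7.56% and 70.0% in Cko. The erythroid-like cells, which should lack the gene, held an *Igkc* UMI in 3.51% of cells in WT and 0.924% in Cko, at median depths of 6189.5 and 8048 UMIs, and in 1.68% and 0.462% when thinned. The 3 stages were above that level in both libraries, while the Cko SLC-high cells led by *Dntt* held an *Igkc* UMI in 0.926%.

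Among the 3 stages *Iglc2* had no intermediate step. The B cell-like cells without a stage held it at 153 CPM in WT and 458 CPM in Cko. It was at 11.9 CPM (8.45 to 16.2) in WT and 13.7 CPM (9.73 to 18.7) in Cko SLC-high cells, and at 19.7 CPM (13.96 to 27.1) and 16.6 CPM (11.5 to 23.2) in SLC-low cells. In Ms4a1-expressing cells it was at 2506 CPM (2153 to 2900) in WT and 3632 CPM (3346 to 3937) in Cko. From SLC-low to Ms4a1-expressing cells it was thus 127-fold higher in WT (interval 89.1 to 185) and 219-fold higher in Cko (155 to 319), while the step from SLC-high to SLC-low was 1.66-fold in WT (1.03 to 2.67) and 1.21-fold in Cko (0.743 to 1.97). A cell with an *Iglc2* UMI was rare before the last stage, at 7 of 405 WT and 8 of 313 Cko SLC-low cells, and common in it, at 15 of 17 and 30 of 35 cells.

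**Figure D2:**
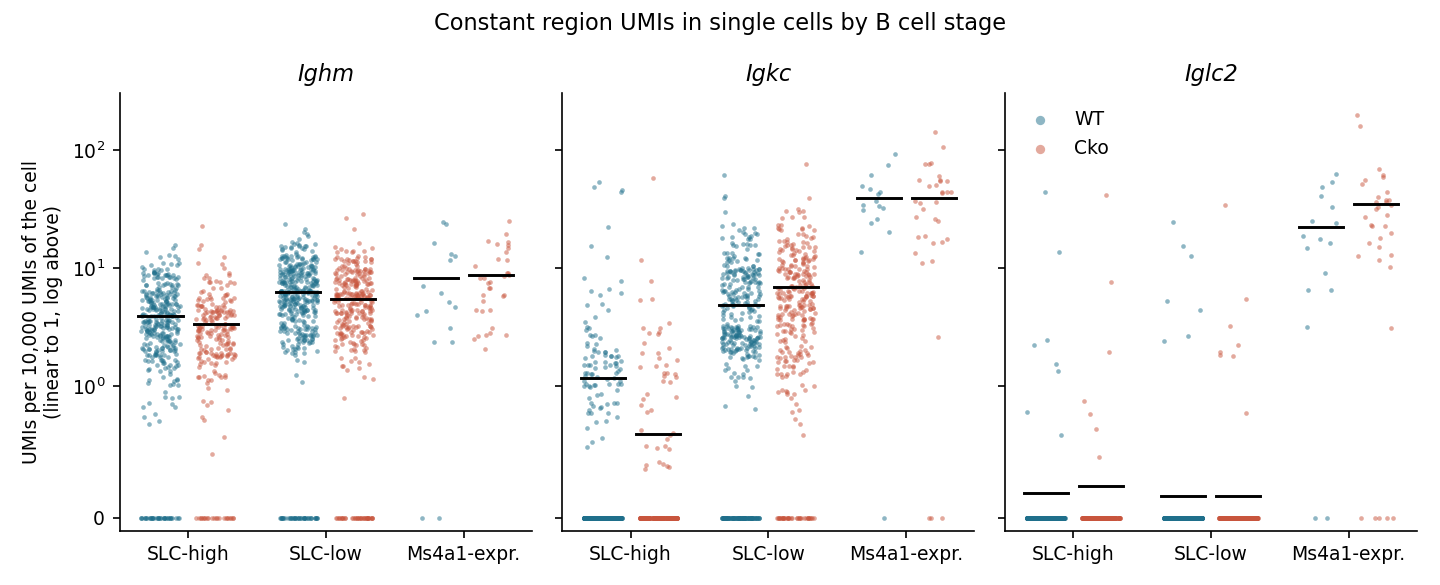
UMIs of *Ighm*, *Igkc* and *Iglc2* per 10000 UMIs of the cell (y axis, linear up to 1 and logarithmic above), each point a cell, for SLC-high, SLC-low and Ms4a1-expressing (Ms4a1-expr.) cells of WT (blue) and Cko (red), with black lines at the mean over cells. *Ighm* overlaps widely between the stages, *Igkc* is higher at each next stage, and *Iglc2* is at 0 in almost all cells until the Ms4a1-expressing stage.

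Heavy and light chain UMIs stood together in a larger share of cells at each next stage, in cells that were not thinned. Light chain UMIs are those of *Igkc* and *Iglc2*, since *Iglc1* had no values. In SLC-high cells *Ighm* was present without any light chain UMI in 227 of 358 WT cells (63.4%) and 152 of 225 Cko cells (67.6%). They stood together in 26.8% and 22.7% of SLC-high cells. In SLC-low cells *Ighm* was present without a light chain UMI in 87 of 405 WT cells (21.5%) and 31 of 313 Cko cells (9.90%). A light chain UMI was present without *Ighm* in 28 and 33 of them, and *Ighm* stood with a light chain in 68.4% and 78.6%. In the Ms4a1-expressing stage no cell had *Ighm* alone, and 15 of 17 WT and 35 of 35 Cko cells held both chains. As a share of *Ighm* plus *Igkc* UMIs, *Ighm* made 81.8% and 84.3% in SLC-high, 58.7% and 48.7% in SLC-low and 18.2% and 19.2% in Ms4a1-expressing cells of WT and Cko.

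SLC-high cells were not uniform. The finer division separated cells led by *Dntt*, with 112 WT and 108 Cko cells, from cells led by *Ccnd2* and *Myc*, which drive cell division, with 246 and 117 cells. The group led by *Ccnd2* and *Myc* had 0 list markers among its top leading genes and was left unnamed by the finer division. Its cells count as SLC-high by the coarser division alone. The cells led by *Dntt* had *Igkc* at 24.6 CPM (14.6 to 38.9) in WT and at 0.972 CPM (0.0246 to 5.41, 1 UMI in 108 cells) in Cko. In cells led by *Ccnd2* and *Myc* it was at 105 CPM (92.8 to 118) and 92.3 CPM (78.9 to 107). Of the 18 *Igkc* UMIs in the WT cells led by *Dntt*, 9 came from 1 cell, and 24 of their 33 *Iglc2* UMIs came from 1 cell. *Ighm* was already present in the cells led by *Dntt*, at 269 CPM (233 to 309) in WT and 283 CPM (251 to 317) in Cko, and at 428 CPM (403 to 454) and 339 CPM (313 to 367) in the cells led by *Ccnd2* and *Myc*. The first step of *Ighm* was 1.59-fold in WT (1.37 to 1.86) and 1.20-fold in Cko (1.04 to 1.38).

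Kappa and lambda were compared as the share of *Igkc* in all *Igkc* and *Iglc2* UMIs. *Iglc1* had no values, so a lambda chain of that gene was counted neither in these shares nor in the calls of single cells below. In SLC-low cells kappa made 95.6% of 870 light chain UMIs in WT (interval 94.1 to 96.9%) and 97.1% of 1173 in Cko (96.0 to 97.98%). With the plasma cell-like cell of that cluster left in, the WT value was 97.9%. In Ms4a1-expressing cells kappa made 60.4% of 455 UMIs in WT (55.8 to 65.0%) and 50.5% of 1198 in Cko (47.6 to 53.4%). The difference in kappa share between these stages was larger than the counting error in both libraries. In SLC-high cells, where light chain UMIs were few, it was 88.0% of 325 in WT and 81.3% of 208 in Cko. That value is not stable. With at least 6 sub-clusters the SLC-high kappa share was 35.3% of 51 UMIs in WT and 50% of 2 UMIs in Cko (1.26 to 98.7%). With immunoglobulin genes kept in the clustering it was 34.0% and 66.7% (38.4 to 88.2% in Cko). With cells of at least 500 genes it was 29.8% and 25% (0.631 to 80.6% in Cko).

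Single cells were then called where they held at least 5 light chain UMIs, as kappa-dominant at 90% *Igkc* or more, lambda-dominant at 10% or less, and mixed between these limits. SLC-low cells reached 5 light chain UMIs in 48 of 405 WT cells (11.9%, interval 8.87 to 15.4%) and 90 of 313 Cko cells (28.8%, 23.8 to 34.1%). When thinned to 3000 UMIs, 31 WT cells (7.65%, 5.26 to 10.7%) and 42 Cko cells (13.4%, 9.84 to 17.7%) did. Of the 48 WT cells 43 were kappa-dominant, 0 lambda-dominant and 5 mixed. Of the 90 Cko cells 87 were kappa-dominant, 0 lambda-dominant and 3 mixed. No *Iglc2* UMI was found in 43 and 85 of these cells.

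Ms4a1-expressing cells were mostly mixed. All but 1 of the 17 WT cells and all 35 Cko cells reached 5 light chain UMIs. Of the 16 WT cells 2 were kappa-dominant, 0 lambda-dominant and 14 mixed (87.5%, interval 61.7 to 98.4%). Of the 35 Cko cells 6 were kappa-dominant, 4 lambda-dominant and 25 mixed (71.4%, 53.7 to 85.4%). At least 5 UMIs of each light chain stood together in 11 WT and 23 Cko cells, and none of the cells was called a doublet. *Igkc* was above *Iglc2* in 11 WT and 21 Cko cells, and in these the median *Iglc2* count was 5 and 7 UMIs. *Iglc2* was above *Igkc* in 6 WT and 13 Cko cells, with a median *Igkc* count of 10.5 and 6 UMIs. Among the cells with 5 light chain UMIs, no *Igkc* UMI was found in 3 Cko cells, 1 of which held 99 *Iglc2* UMIs, and no *Iglc2* UMI in 2 WT and 5 Cko cells. In SLC-low cells of the same libraries the mean *Iglc2* count was 0.0938 and 0.109 UMIs per cell, against 10.6 and 16.9 over all Ms4a1-expressing cells, mixed or not. The B cell-like cells without a stage had means of 1.34 and 3.37 UMIs, with highest cells of 32 in WT and 106 in Cko. Whether 2 cells in 1 droplet, germline lambda transcripts or reads from *Iglc3* give the mixed cells was not tested.

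**Figure D3:**
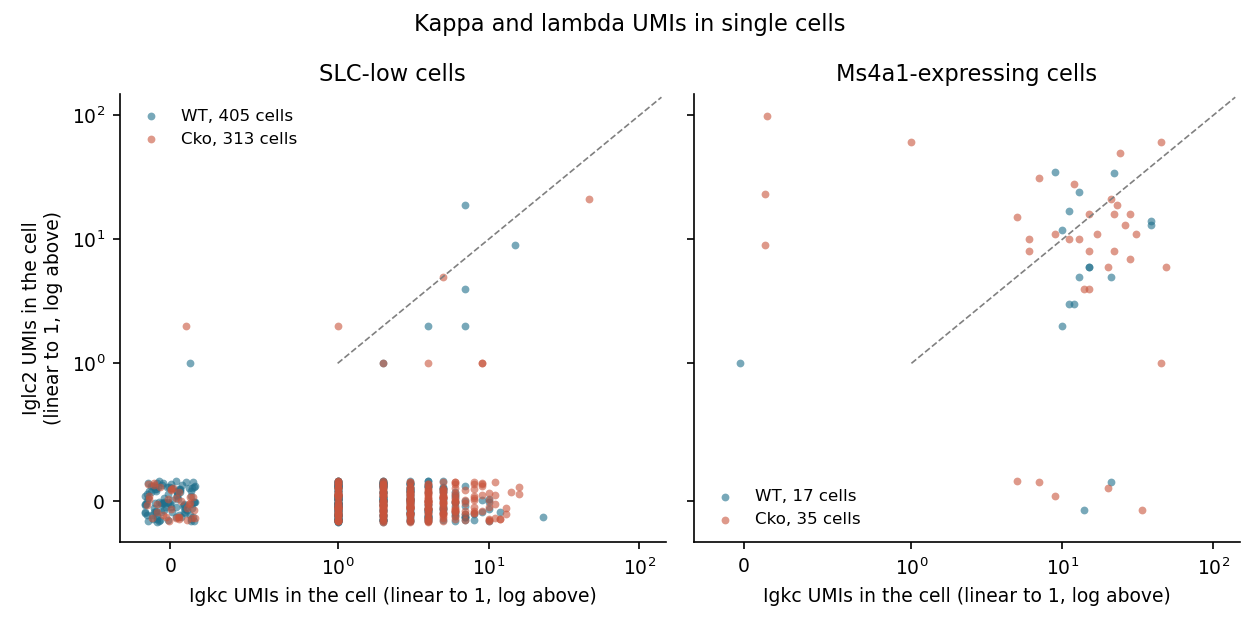
*Igkc* UMIs (x axis) against *Iglc2* UMIs (y axis) of each cell, both linear up to 1 and logarithmic above, for SLC-low cells (left) and Ms4a1-expressing cells (right) of WT (blue) and Cko (red), with cells at 0 spread around 0 and a dashed line where both counts are equal. SLC-low cells lie along the *Igkc* axis, and most Ms4a1-expressing cells lie away from both axes.

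Between Cko and WT, the ratio of CPM was set beside that of all genes with at least 100 UMIs in the stage over both libraries. In SLC-low cells *Ighm* was at 0.863 of its WT level (interval 0.794 to 0.938) and *Igkc* at 1.29 (1.18 to 1.41), while the median gene was at -0.13 on the log2 scale. Of 3531 genes in that stage, 47 or 1.33% differed by 2-fold or more, and neither gene did. *Igkc* lay at percentile 94.96 of the ratios of that stage and *Ighm* at percentile 37.2. This result rests on setting the plasma cell-like cell apart, because with it among the WT SLC-low cells their *Igkc* was at 1672 CPM and their *Ighm* at 1350.2 CPM and the log2 ratios of Cko to WT became -1.59 and -1.35.

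In SLC-high cells *Ighm* was at 0.812 (0.745 to 0.884) and *Igkc* at 0.681 (0.560 to 0.826) of WT, at percentiles 20.4 and 5.06 of 4366 genes, of which 1.17% differed by 2-fold. Both SLC-high values depend on the division of the cells. The log2 ratio of *Igkc* was -0.55 here, -4.66 with at least 6 sub-clusters and 0.47 with stages set per cell, and that of *Ighm* was -0.30 here and 0.071 with at least 6 sub-clusters. In Ms4a1-expressing cells *Ighm* was at 1.04 (0.765 to 1.43), *Igkc* at 0.968 (0.838 to 1.12) and *Iglc2* at 1.45 (1.22 to 1.72) of WT, among 294 genes of which 6.46% differed by 2-fold. A Cko cell with 99 *Iglc2* UMIs held 16.7% of the *Iglc2* of that stage. Without the highest cell of each library the ratio was 1.41 (1.17 to 1.70). *Iglc2* had under 100 UMIs in the earlier stages, where its ratio was 1.15 (0.720 to 1.84) in SLC-high and 0.842 (0.514 to 1.37) in SLC-low cells.

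The shares of cells in the stages depended on the denominator and on how the stages were set. SLC-low cells made 6.46% of WT cells (interval 5.86 to 7.10%) and 8.55% of Cko cells (7.66 to 9.50%), but 11.3% and 9.69% of non-erythroid cells. SLC-high cells made 5.71% and 6.14% of all cells and 9.96% and 6.97% of non-erythroid cells, while they made 1.79% and 2.95% of all cells with at least 6 sub-clusters and 8.60% and 10.9% with stages set per cell. Ms4a1-expressing cells made 0.271% of WT cells (0.158 to 0.434%) and 0.956% of Cko cells (0.667 to 1.33%), and 0.473% and 1.08% of non-erythroid cells. With stages set per cell they made 0.574% and 1.53% of all cells. Erythroid-like cells made 42.7% of the WT and 11.8% of the Cko library although red blood cells had been lysed, and fewer cells of a type and more of the others cannot be told apart in a share.

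The genes that work with the constant regions were read as lists, with a gene counted where it differed by 2-fold or more between neighbouring stages in both libraries. By the same rule, of 5297 genes with at least 10 UMIs in each library, 3.66% were higher and 8.84% lower in SLC-low than in SLC-high cells, and of 4935 genes 7.07% were higher and 4.82% lower in Ms4a1-expressing than in SLC-low cells. Of 6 listed genes of the surrogate light chain and V(D)J recombination, *Igll1*, *Vpreb1*, *Vpreb2* and *Dntt* were lower in SLC-low than in SLC-high cells, and *Vpreb3*, a partner of immature µ and light chains, was higher, at 3502 against 1731 CPM in WT and 3387 against 1575 CPM in Cko. The 4 lower genes also stand in the marker list that names SLC-high cells, so their direction is what the naming selected. Of 9 listed genes of B cell receptor signalling 5 were higher in SLC-low cells and 0 lower. They were *Cd79b*, which carries the signal of surface µ chain, the kinases *Syk*, *Blk* and *Lyn*, and the receptor *Cd72*. *Cd79b* was at 403 and 401 CPM in SLC-high, 1039 and 1017 CPM in SLC-low and 1921 and 2303 CPM in Ms4a1-expressing cells of WT and Cko.

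Of 7 listed transcription factors that act at the light chain loci, *Irf4* and *Spib* were higher in SLC-low cells and 5 did not pass 2-fold in both libraries. *Spib* was at 29.5 and 27.4 CPM in SLC-high and at 202.5 and 174 CPM in SLC-low cells, and *Irf4* at 39.9 and 35.8 CPM and then at 101 and 77.2 CPM. *Irf4* was lower again in Ms4a1-expressing cells, at 41.8 and 18.4 CPM, but these values rest on 3 UMIs in each library. All 8 listed genes of antigen presentation and maturation were higher in Ms4a1-expressing than in SLC-low cells, and all 8 also stand in the marker list that names that stage, so the count is what the naming selected. *Cd74* was at 6111 CPM in WT and 10572 CPM in Cko against 192 and 174 CPM in SLC-low cells. Of the switched heavy chain genes only *Ighg2b* was listed in both libraries, with 29 UMIs in WT and 28 in Cko. The listed genes were open to the clustering that formed the stages.

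Over 20 points, the classes and stages of at least 50 cells (11 in WT and 9 in Cko), the 3 genes most like each constant region gene by Pearson's r of log2(CPM + 10) were taken, other immunoglobulin genes left out. For *Igkc* they were *Arl5c* (r = 0.943), *Spib* (0.936) and *Atp1b1* (0.935). For *Ighm* they were *Hes6* (0.935), *Git2* (0.932) and *Gm4258* (0.926). For *Iglc2* they were *Ms4a1* (0.907), *Faim3* (0.809, the Fc receptor of IgM) and *Ly6d* (0.784). The Ms4a1-expressing stage had too few cells to be a point, and points of 1 library share its depth and its free RNA.

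Outside the B cell-like classes the genes parted. Of the UMIs not in the plasma cell-like cells, 42.5% of WT and 42.2% of Cko *Ighm* UMIs lay in other classes. For *Igkc* this share was 37.5% in WT and 18.2% in Cko, and for *Iglc2* 46.0% and 23.1%. With called doublets removed it was 22.9% and 15.0% for *Igkc* and 32.3% and 20.3% for *Iglc2*. The light chain shares, and their order between libraries, depend on the clustering. With each library clustered on its own they were 28.3% and 49.6% for *Igkc* and 42.3% and 93.0% for *Iglc2*. With cells of at least 500 genes they were 56.1% and 51.5% for *Igkc* and 88.7% and 93.0% for *Iglc2*. Neither setting gave an Ms4a1-expressing stage, and their higher shares count cells that are B cell-like here as outside. Of the 1055 Cko *Iglc2* UMIs, 593 lay in the 35 Ms4a1-expressing cells named here. *Ighm* in monocyte-like cells was at 172 CPM (interval 155 to 189) in WT and 99.5 CPM (90.1 to 110) in Cko, and in granulocyte-monocyte progenitor-like (GMP-like) cells at 99.2 CPM (92.6 to 106) and 87.2 CPM (81.2 to 93.6). The T/NK-like cells, 21 in WT and 64 in Cko, had it at 113 CPM (64.6 to 184) and 127 CPM (91.7 to 172), intervals that overlap those of the monocyte-like and of the GMP-like cells in both libraries. The unnamed cells led by *Sepp1* and *Lgmn* had it at 104 CPM (90.5 to 118) and 45.8 CPM (29.6 to 67.6). Of these 228 WT and 47 Cko cells 58 and 13 were called doublets, against 2.03% and 1.39% of all cells. They had *Igkc* at 175 and 154 CPM, and 34 and 7 of them held at least 5 light chain UMIs. Neutrophil-like cells led by *Chil3*, the less mature ones, had *Ighm* at 47.1 and 48.1 CPM and those led by *Mmp8* at 31.9 and 24.8 CPM. Erythroid-like cells had it at 8.80 CPM (7.53 to 10.2) in WT and 2.05 CPM (0.887 to 4.05) in Cko.

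**Figure D4:**
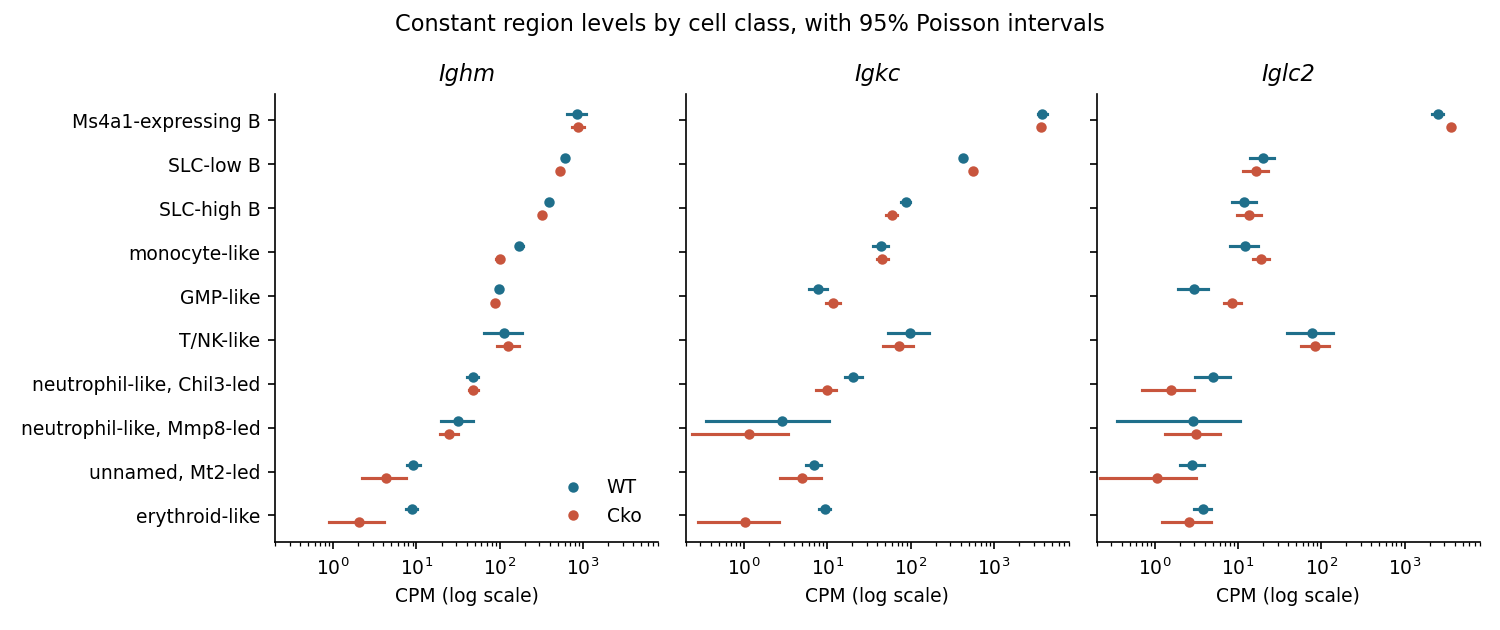
CPM of *Ighm*, *Igkc* and *Iglc2* (x axis, logarithmic) in the B cell stages and the other classes of cells (y axis), for WT (blue) and Cko (red), with points at the level and bars for the exact 95% Poisson interval. *Ighm* is lower in monocyte-like, GMP-like and T/NK-like than in B cell-like cells and lower again in neutrophil-like and erythroid-like cells. *Igkc* in GMP-like cells is near its erythroid-like level in WT (7.72 and 9.30 CPM) and above it in Cko (11.8 and 1.03 CPM). Without cells of at least 5 light chain UMIs, which are not left out of the plot, these levels are 6.46 and 4.61 CPM in WT. In Cko they are then 1.60 CPM (0.877 to 2.69) and 1.03 CPM (0.280 to 2.63), with overlapping intervals.

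The *Ighm* level of GMP-like cells was 11.3-fold that of erythroid-like cells in WT (interval 9.56 to 13.4) and 42.5-fold in Cko (21.4 to 98.7). In share of cells, 58.0% of WT GMP-like cells (54.3 to 61.7%) and 56.1% in Cko (52.0 to 60.2%) held an *Ighm* UMI, against 5.64% (4.80 to 6.58%) and 1.85% (0.801 to 3.61%) of erythroid-like cells. GMP-like cells were deeper, with medians of 11742 and 14620 UMIs against 6189.5 and 8048. Thinned to 3000 UMIs the shares were 25.5% and 21.4% in GMP-like, 37.3% and 23.4% in monocyte-like, 12.7% and 11.01% in *Chil3*-led neutrophil-like and 2.43% and 0.924% in erythroid-like cells. *Ighm* therefore differed between GMP-like and erythroid-like cells beyond counting error in both libraries, also at equal depth. The profile of free RNA was not estimated, and its part in these values was not tested.

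The share of *Ighm* against *Igkc* differed between these classes. In GMP-like cells *Igkc* was at 7.72 CPM (5.96 to 9.84) in WT and 11.8 CPM (9.68 to 14.3) in Cko, and 4.69% and 3.22% of the cells held a UMI of it. *Ighm* made 92.8% of the *Ighm* and *Igkc* UMIs of WT GMP-like cells (90.9 to 94.4%) and 88.1% of those of Cko (85.7 to 90.1%). The same share was 63.2% and 50.7% in all B cell-like cells, 37.6% in the plasma cell-like cells and 48.6% (43.3 to 53.9%) in WT erythroid-like cells. In *Mmp8*-led neutrophil-like cells it was 91.7% and 95.5%. In WT erythroid-like cells *Igkc* was at 9.30 CPM (8.005 to 10.8) beside *Ighm* at 8.80 CPM, and in Cko at 1.03 CPM (0.280 to 2.63) beside 2.05 CPM. Of the 2678 WT erythroid-like cells, 13 held at least 5 light chain UMIs. Without these 13 cells *Ighm* was at 7.94 CPM (6.74 to 9.29) and *Igkc* at 4.61 CPM (3.71 to 5.67). The share of 48.6% thus rested partly on few cells, although leaving out cells by their light chain UMIs lowers *Igkc* by itself. Erythroid-like cells of WT had more of both genes in CPM than those of Cko, also without the 13 cells. In GMP-like cells *Igkc* was lower in WT than in Cko over all cells, at 7.72 and 11.8 CPM. Without the cells of at least 5 light chain UMIs it was higher in WT, at 6.46 against 1.60 CPM. The part of the plasma cell-like cells, found in WT alone, in these values was not tested.

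Most light chain UMIs outside the B cell-like classes lay in few cells. Cells of at least 5 light chain UMIs numbered 74 of 5428 in WT (1.36%) and 42 of 3046 in Cko (1.38%). They held 61.1% of the *Igkc* and 70.6% of the *Iglc2* UMIs found outside in WT, and 86.9% and 76.6% in Cko, but 8.30% and 6.62% of the *Ighm*. Of these cells 67 WT (90.5%) and 41 Cko (97.6%) also held *Ms4a1* or at least 2 UMIs of *Cd79a*, the partner of *Cd79b*, against 3.21% and 1.93% of the other cells outside. Their median depth was 9444.5 UMIs in WT and 8841 in Cko against 7165 and 7587.5 in the others, and 8 and 3 of them were called doublets. Without them *Igkc* in GMP-like cells was at 6.46 CPM (4.85 to 8.43) in WT and 1.60 CPM (0.877 to 2.69) in Cko, and in monocyte-like cells at 12.98 CPM (8.76 to 18.5) and 4.23 CPM (2.46 to 6.77), down from 43.7 and 46.0 CPM. These cells were chosen by their light chain UMIs, so a lower *Igkc* without them follows from the choice. *Ighm* without them was at 98.6 and 85.3 CPM in GMP-like and at 163 and 93.0 CPM in monocyte-like cells.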

How the data were processed

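BMCs of 1 WT and 1 Cko mouse were analysed. The authors lysed red blood cells, used the Chromium Single Cell 3′ kit v2 and Cell Ranger with GRCm38 (submitters' processing notes; version not given in the sources used here), and deposited whole-number UMI counts per gene and barcode. Barcodes under 200 genes were left out. Scrublet, run in scanpy 1.11.5, marked doublets, which stayed in. Clustering used Seurat 5.3.0 in R 4.3.3 with 2000 variable genes, 20 principal components, mitochondrial and ribosomal shares regressed out, and the lowest resolution giving 10 clusters, then at least 4 (or 6) among B cell-like cells. Clusters were named from marker lists.

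Levels are summed UMIs as CPM. Intervals are 95% exact Poisson, exact binomial (Clopper-Pearson) or exact conditional. No test was made with 1 library per group. Thinning drew 3000 UMIs per cell, leaving out 4 WT cells outside B cell-like classes and 0 Cko cells. The interval functions were tested on simulated data. Members, lists and named genes (the listed members, the 3 genes most alike and list genes past 2-fold) were chosen with earlier results of these data known. Values came from scipy 1.17.1 and pandas 2.3.3, figures from matplotlib 3.10.9, under Python 3.11.15.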

Additional observations from a re-analysis of the deposited data

How the results depend on the processing

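With 59 values recomputed under other settings, 16 of them answering a comparison, the latter stayed within their interval 82 times, moved 26 times and reversed 1 time. The other values stayed within their interval 187 times, moved 115 times and reversed 4 times. Stages set per cell by surrogate light chain and *Ms4a1* UMIs gave SLC-low shares of 4.21% in WT and 4.40% in Cko, SLC-low kappa shares of 92.7% and 99.2%, a WT Ms4a1-expressing kappa share of 70.6%, and log2 ratios of Cko to WT of 0.47 for *Igkc* in SLC-high (reversed), -0.057 and 0.95 for *Ighm* and *Igkc* in SLC-low and 0.99 for *Iglc2* in Ms4a1-expressing cells. With non-erythroid cells as the denominator, the SLC-low shares were 11.3% and 9.69%. Thinning gave a Cko SLC-low kappa share of 98.5% and an SLC-low *Igkc* log2 ratio of 0.53. *Ighm* in SLC-high cells reversed with immunoglobulin genes kept in the clustering (0.054), with at least 6 sub-clusters (0.071) and with cells of at least 500 genes (0.028), so its direction between libraries depends on how the cells are divided. Clustering each library on its own gave a WT SLC-low kappa share of 84.0%, a Cko log2 *Ighm* ratio of GMP-like over erythroid-like cells of 3.96, and 40.7% of WT and 47.2% of Cko *Ighm* UMIs outside B cell-like cells. That share was 44.4% and 43.7% with immunoglobulin genes kept, 38.4% in WT with doublets removed, and 45.8% and 47.8% with at least 500 genes, where the GMP-like over erythroid-like log2 ratio was 2.30 in WT and 3.51 in Cko. With the 4 plasma cell-like cells left in, a setting chosen after seeing the data, as were leaving out the top *Iglc2* cells and the light chain-rich cells outside, the WT SLC-low kappa share was 97.9%, 53.7% of WT *Ighm* UMIs lay outside, and the SLC-low log2 ratios were -1.35 for *Ighm* and -1.59 for *Igkc* (reversed). The causes were not tested. Clustering each library on its own gave no Cko SLC-low and no Ms4a1-expressing stage, at least 500 genes no Ms4a1-expressing stage, and keeping immunoglobulin genes no GMP-like class. No paired analysis was possible because each genotype had 1 library and no test was made. The 17 WT Ms4a1-expressing cells set the precision of that stage.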

Other observations

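Other immunoglobulin genes were read as values only. *Igkv19-93*, a kappa variable gene, had 99 UMIs in 82 WT cells and 162 UMIs in 109 Cko cells, with at most 4 and 5 UMIs in a cell. *Ighg2b*, the constant region of IgG2b, had 29 UMIs in 14 WT cells and 28 in 10 Cko cells. The other variable genes listed were listed in WT alone. *Iglv1*, a lambda variable gene, had 71 UMIs in 32 WT cells, of which 34 lay in 1 of the 4 plasma cell-like cells, the one with 57 *Iglc2* and 1102 *Igkc* UMIs. *Igkv8-19* had 18 UMIs in 4 WT cells, *Igkv15-103* 16 in 7, *Igkv4-74* 14 in 7 and *Igkv4-53* 9 in 1 cell.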
